A study of Mus musculus with 6 samples.

Results

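The 35 genes described here encode parts of the cardiac sarcomere and its Z-disc, in the root of the aorta, compared between mice labelled with and without the Sost gene. Members were taken by symbol from the deposited count table, which holds 23420 gene symbols, and all 35 were found and passed the filter on low counts. Bulk RNA was sequenced from 6 roots of mice on a C57BL6/J background. The genotype label was Sost+/+ for 3 of them (WT 1 to 3) and Sost-/- for the other 3 (KO 1 to 3). Every mouse was 12 months old and had been given a high-cholesterol diet for 8 months, starting at 4 months of age on standard chow. No label says which animal a root came from, and p-values therefore rest on the spread between the sequenced samples alone, which may be technical in part.

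The sarcomere is the contractile unit of striated muscle. Thick filaments of myosin pull on thin filaments of actin, the troponin complex and tropomyosin switch the thin filament on when calcium rises, titin and the M-band hold the thick filaments in place, and the Z-disc anchors the thin filaments of neighbouring units. Atrial and ventricular heart muscle use different myosin light chains, and the aortic root borders on both kinds of muscle. Smooth muscle of the vessel wall has no sarcomeres, although some Z-disc, tropomyosin and desmin genes are also active there.

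Totals of counts ran from 37023586 to 48172863 per library. Sost counts were 354, 621 and 274 in the WT libraries and 2284, 1063 and 513 in the KO libraries (log2 fold change 1.56, SE 0.48, adjusted p = 0.124), so the targeted gene goes against the labels, and every direction below is for libraries labelled Sost-/- against those labelled Sost+/+. Heart muscle was present in every root: the 35 members took 12.9%, 12.4% and 12.6% of all counts in WT 1 to 3, against 10.5%, 10.4% and 9.03% of counts in KO 1 to 3. Smooth muscle markers moved the other way: 18 of 18 were tested, 13 rose and 0 fell in edgeR (0 were lower at an unadjusted p under 0.05 or by DESeq2), with a median log2 fold change of 1.37, and their summed share of counts ran from 0.197% to 0.350% among WT libraries and from 0.550% to 0.810% among KO libraries. Markers of skeletal muscle took between 0.0126% and 0.0152% of counts among WT libraries and between 0.00903% and 0.0182% among KO libraries. Of 16 such markers 11 were tested, and 0 passed in edgeR (0 at an unadjusted p under 0.05). The fast skeletal heavy chain genes Myh2 and Myh4 and the fast skeletal troponin C gene Tnnc2 did not pass the filter on low counts. Markers of other cells passed in edgeR for 1 cartilage gene of 4 tested and for 0 of the fibroblast, adipocyte, nerve and Schwann cell, macrophage and endothelial lists. As background for the counts here and below, 3056 of all 15096 tested genes had an unadjusted p under 0.05 in edgeR, 1301 of them lower. DESeq2 called 753 of 15216 genes higher. Of 10 fibroblast genes 8 had a positive fold change (4 at an unadjusted p under 0.05, 3 by DESeq2), and their share of counts ran from 0.407% to 0.459% among WT libraries and from 0.503% to 0.601% among KO libraries. All 8 adipocyte genes were positive, with a median of 1.38 (5 at an unadjusted p under 0.05, 0 by DESeq2), and shares of 0.0501% to 0.0810% in WT overlapped those of 0.0643% to 0.138% in KO. All 7 tested nerve and Schwann cell genes of 8 were positive, with a median of 0.42 (3 at an unadjusted p under 0.05, 1 by DESeq2). Macrophage genes were positive in 5 of 9 tested (3 higher at an unadjusted p under 0.05, 2 by DESeq2), and endothelial genes in 1 of 10 (1 lower at an unadjusted p under 0.05, 0 by DESeq2). The part of these cell types in the results below was not tested. In bulk RNA, fewer heart muscle cells and less RNA per heart muscle cell cannot be told apart.

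Among the 35 members, 31 had a lower mean and 4 a higher mean in the KO libraries. The median log2 fold change was -0.43, where the median of all 15096 tested genes was 0.0066 and 48.7% of them had a negative fold change. In edgeR's quasi-likelihood test, with Benjamini-Hochberg adjustment over all tested genes and a threshold of 0.05, 3 members fell and 0 rose, and at an unadjusted p under 0.05 these numbers were 26 and 0. Of all tested genes 0.371% fell and 2.18% rose in this test, and 8.62% were lower at an unadjusted p under 0.05. The members that fell were Csrp3, Myoz2 and Myom2. For 25 members the 3 KO libraries all lay below the 3 WT libraries, and for 0 they all lay above, where 11.1% and 14.3% of all tested genes did so. KO 3 was the lowest library for 20 of these 25 members, and WT 1 the highest for 19. The members thus move together across libraries and are not independent observations. DESeq2 called 22 members lower and 0 higher, against 2.66% of the genes it tested called lower. In edgeR, leaving out WT 1, WT 2, KO 1 or KO 3 ended all member calls, while leaving out WT 3 kept the call of Myom2 (adjusted p = 0.0469) and leaving out KO 2 left Myh7 as the 1 member called (adjusted p = 0.0316). With DESeq2, 6 members were called with each library left out in turn: Csrp3, Myoz2, Myom2, Myh7, Actn2 and Mybpc3.

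**Figure D1:**
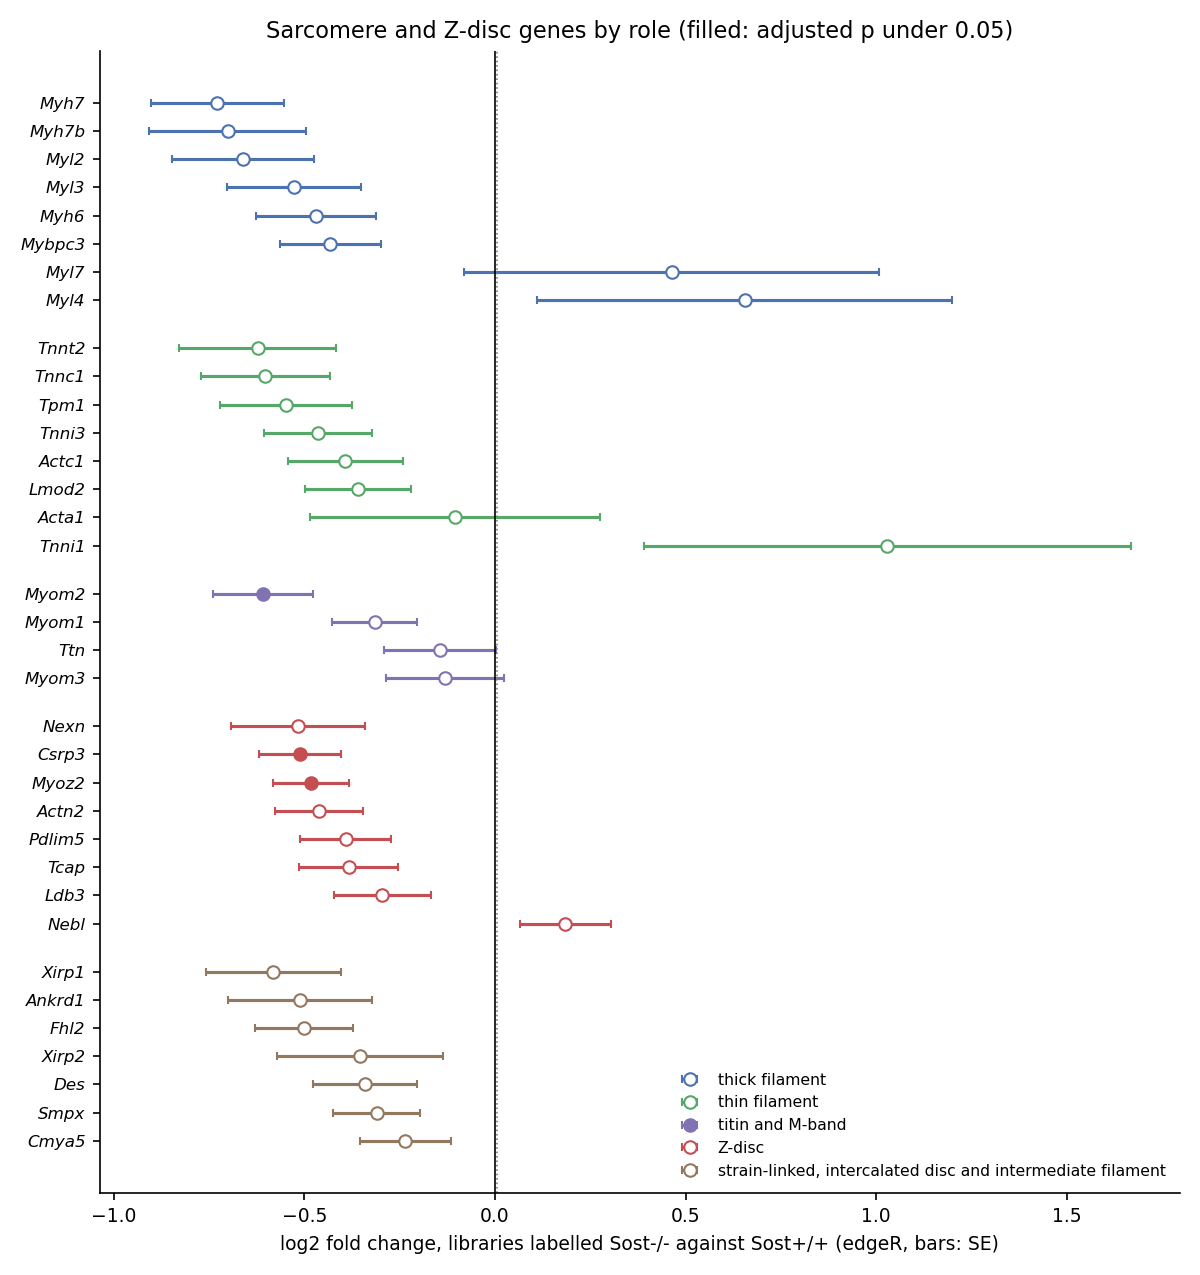
Log2 fold change (x axis) of each of the 35 members, libraries labelled Sost-/- against Sost+/+, with bars for the SE, grouped and coloured by role; filled points passed the edgeR test at an adjusted p under 0.05, and the dotted line is the median of all tested genes. Of the 35 points 31 lie left of 0, and the 4 to the right are Myl4, Myl7, Tnni1 and Nebl.

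Promoter sequences are shown for 4 members, because the members that fell and the light chain genes of the atrium and ventricle are the ones the results turn on. Windows of 300 bases, 250 before and 50 after the start site, come from RefSeq (build GRCm38.p6, the assembly of mm10) and matched 31 of the 35 members in 42 windows. Capitals mark matches, on either strand, to the M-CAT letters CATTCC (bound by TEAD factors), the CArG box (bound by serum response factor) or the MEF2 consensus (bound by MEF2 factors), and to TATAAA. The windows are chr11:5898733-5899032 on the minus strand for Myl7, chr9:110763428-110763727 on the plus strand for Myl3, chr3:123034938-123035237 on the minus strand for Myoz2 and chr7:48848002-48848301 on the minus strand for Csrp3.
Myl7: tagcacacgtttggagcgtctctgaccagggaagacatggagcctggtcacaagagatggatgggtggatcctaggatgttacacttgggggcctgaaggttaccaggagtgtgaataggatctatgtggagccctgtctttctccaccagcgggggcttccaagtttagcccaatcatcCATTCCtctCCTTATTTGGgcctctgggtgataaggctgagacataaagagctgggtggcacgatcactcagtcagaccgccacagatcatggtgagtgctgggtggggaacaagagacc
Myl3: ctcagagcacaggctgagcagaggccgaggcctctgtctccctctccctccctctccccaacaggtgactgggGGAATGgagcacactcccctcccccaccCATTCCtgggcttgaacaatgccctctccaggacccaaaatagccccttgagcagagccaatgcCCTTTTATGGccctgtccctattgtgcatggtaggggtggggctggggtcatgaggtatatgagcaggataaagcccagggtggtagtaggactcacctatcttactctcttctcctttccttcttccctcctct
Myoz2: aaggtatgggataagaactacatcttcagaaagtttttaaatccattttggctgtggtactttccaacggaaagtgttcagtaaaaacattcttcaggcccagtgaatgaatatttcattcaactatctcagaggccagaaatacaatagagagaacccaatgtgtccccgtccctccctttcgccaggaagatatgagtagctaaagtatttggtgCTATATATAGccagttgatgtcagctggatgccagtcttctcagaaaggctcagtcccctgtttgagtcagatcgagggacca
Csrp3: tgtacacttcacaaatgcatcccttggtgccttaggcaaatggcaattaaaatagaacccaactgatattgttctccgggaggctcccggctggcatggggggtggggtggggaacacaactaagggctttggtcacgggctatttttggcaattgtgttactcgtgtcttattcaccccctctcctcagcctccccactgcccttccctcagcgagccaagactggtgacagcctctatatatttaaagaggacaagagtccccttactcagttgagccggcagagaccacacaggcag
The atrial gene Myl7 and the ventricular gene Myl3 both hold a CArG box, at -61 to -52 and -85 to -76 from the start site, and both hold CATTCC. Myoz2 holds a MEF2 match at -33 to -24, and the printed window of Csrp3 holds none of the 4 motifs. The other window of Csrp3 and the window of the atrial gene Myl4, not printed, hold none either, so a CArG box was found for 1 of the atrial light chain genes. Both RefSeq windows of Myl2 lie upstream of the gene as GENCODE M21 draws it and are not printed. Myom2, Nexn, Tcap and Xirp1 were not matched.

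CArG boxes were in 10 of the 42 member windows (23.8%) and in 1.63% of all 32841 windows of that length. The Ldb3 windows with a CArG box overlap and hold the same site, which is counted in each (at -109 and -35 from their start sites). The member genes with a CArG box were Acta1, Actc1, Fhl2, Ldb3, Myl3, Myl7, Myom1 and Nebl. CATTCC was in 26.2% of member windows and 14.7% of all windows, the MEF2 consensus in 14.3% and 3.19%, and TATAAA in 14.3% and 13.6%. In Fhl2 the TATAAA match lies within the MEF2 match. On the log2 scale, the genes with a CArG box were at -0.53 (Myl3), -0.50 (Fhl2), -0.39 (Actc1), -0.32 (Myom1), -0.30 (Ldb3), -0.11 (Acta1), 0.18 (Nebl) and 0.46 (Myl7). Whether the motif goes with the direction was not tested.

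Thick filament genes of the ventricle and of heart muscle at large were lower in the KO libraries, while those of the atrium were not. Values are CPM, counts scaled to library size with TMM factors. Myh6 encodes the alpha heavy chain, the fast motor of the adult mouse heart, and lies on chromosome 14 from 54941921 to 54966927 (minus strand, mm10, GENCODE M21). Its CPM were 36141, 37104 and 35097 in WT and 30371, 25185 and 22643 in KO libraries. Every KO library was below every WT library, and the log2 fold change of -0.47 (SE 0.16) did not pass (adjusted p = 0.148). Myh7, the slower beta heavy chain, lies next to it from 54970684 to 54994626 and had 5004, 4690 and 4976 CPM in WT against 2802, 3740 and 2310 CPM in KO libraries. These groups did not overlap either, and Myh7 had the lowest log2 fold change of all members, -0.73 (SE 0.17, adjusted p = 0.0684). Its direction was the same in all 6 fits with a library left out, between -0.94 and -0.58. Near-identical stretches of Myh6 and Myh7 can share reads, and 8.28% of Myh7's exon bases overlap Gm31251 and 7.33% overlap Mhrt, both on the opposite strand. As the strand setting of the counting is not given, reads of such partners may not be told apart.

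Myh7b, a related heavy chain gene, was at -0.70 (SE 0.21, adjusted p = 0.114) and Mybpc3, the cardiac myosin-binding protein C that controls how heads leave the filament, at -0.43 (SE 0.13, adjusted p = 0.124). Neither overlapped between groups. Of the 8 thick filament genes, 0 passed in edgeR (6 were lower at an unadjusted p under 0.05, and 6 by DESeq2), 6 had non-overlapping lower KO values, and the others were the atrial light chains.

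The ventricular light chain genes were lower in every KO library. Myl2, the ventricular regulatory light chain (chromosome 5, 122100951 to 122113472, plus strand), had 7139, 5153 and 5111 CPM in WT and 4157, 3923 and 2927 CPM in KO libraries. Myl3, the ventricular essential light chain (chromosome 9, 110741861 to 110769798, plus strand), had 5783, 4560 and 4580 CPM in WT and 4029, 3647 and 2684 CPM in KO libraries. For both, WT 1 was highest and KO 3 lowest, with no overlap. The log2 fold changes were -0.66 (SE 0.19, adjusted p = 0.101) for Myl2 and -0.53 (SE 0.18, adjusted p = 0.148) for Myl3, so neither passed in edgeR.

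The atrial light chain genes varied several-fold within each group and did not follow the labels. Myl4, the atrial essential light chain (chromosome 11, 104550663 to 104595753, plus strand), had 213, 1077 and 601 CPM in WT and 639, 632 and 1706 CPM in KO libraries. Myl7, the atrial regulatory light chain (chromosome 11, 5896637 to 5898782, minus strand), had 201, 858 and 495 CPM in WT and 447, 394 and 1301 CPM in KO libraries. In both genes WT 1 was lowest, KO 3 highest and WT 2 second highest. The highest WT library exceeded the lowest 5.06-fold for Myl4 and 4.27-fold for Myl7. The log2 fold changes of 0.65 (SE 0.54, adjusted p = 0.533) and 0.46 (SE 0.54, adjusted p = 0.670) were within that spread, and without KO 3 that of Myl7 was -0.30.

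**Figure D2:**
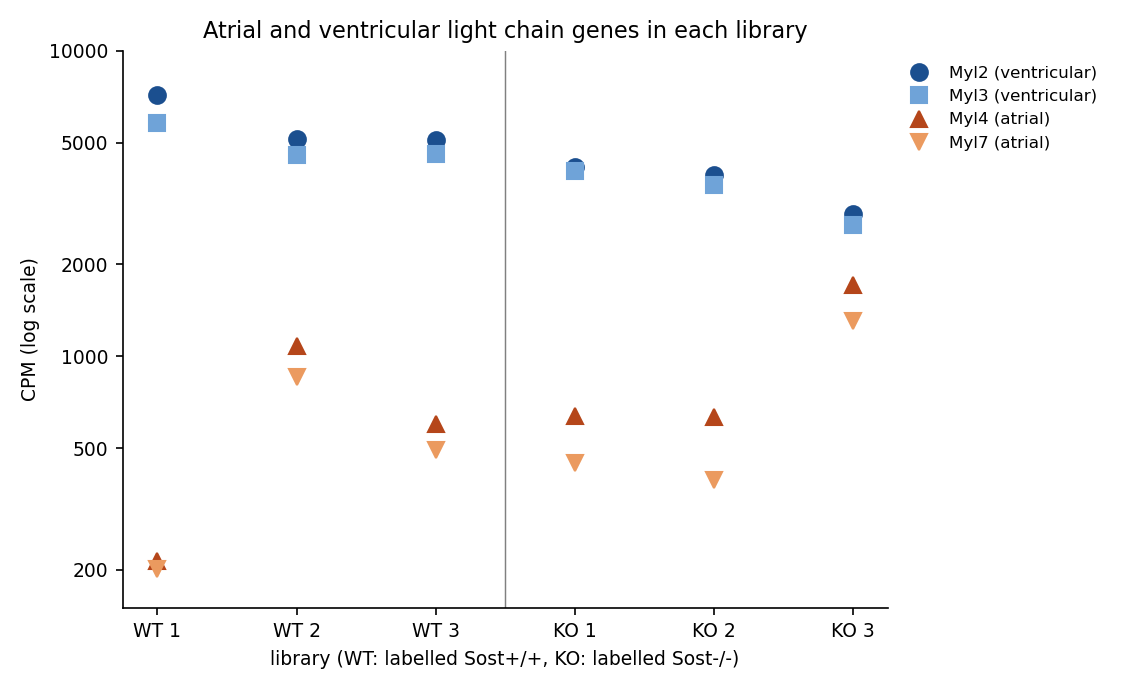
CPM on a log scale (y axis) of the ventricular light chain genes Myl2 and Myl3 and the atrial ones Myl4 and Myl7 in each library (x axis), 1 point per gene and library. The ventricular points lie lower in every KO than in every WT library, while the atrial points run from 201 CPM in WT 1 to 1706 CPM in KO 3.

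Most other genes known for atrial expression had the same highest and lowest libraries as Myl4 and Myl7. Of 13 tested genes of a list of 14, 8 were both lowest in WT 1 and highest in KO 3, and 11 were highest in KO 3. The share of all tested genes with these extremes was not counted. Being highest in KO 3 was not particular to atrial genes, as the summed share of smooth muscle markers was also highest there, at 0.810% of counts. Nppa (the atrial natriuretic peptide), Sln (sarcolipin, the atrial inhibitor of the calcium pump) and Mybphl (an atrial myosin-binding protein), named after their values were seen, are examples and do not stand for the whole list. Nppa had 536, 1927 and 1036 CPM in WT and 907, 569 and 2013 CPM in KO libraries. Sln had 34.9, 211 and 86.2 CPM in WT and 84.9, 43.7 and 253 CPM in KO libraries. Mybphl had 11.5, 76.0 and 40.3 CPM in WT and 47.6, 20.8 and 132 CPM in KO libraries. In all 3, WT 2 and KO 3 were the highest libraries and the groups overlapped. Of the 13, Nr2f1, a nuclear receptor gene of atrial muscle that other cells also use, rose (0.88, SE 0.16, adjusted p = 0.0288), and Kcna5, an atrial potassium channel gene, fell (-0.73, SE 0.15, adjusted p = 0.0436). The list's median log2 fold change was 0.35. At an unadjusted p under 0.05, 4 of its genes were higher and 1 lower, and DESeq2 called 3 higher and 1 lower. Non-overlapping KO values were higher for 2 genes and lower for 1. A list of 7 ventricular genes had a median of -0.11. In edgeR 1 rose, Hey2 (1.33, SE 0.22, adjusted p = 0.0235), a Notch target that is also active in arteries, and 0 fell. At an unadjusted p under 0.05, 2 were higher and 1 lower, with the same counts by DESeq2. Non-overlapping KO values were higher for 3 and lower for 1. Besides Hey2, the higher ones were Kcnj2 (0.16, SE 0.096, adjusted p = 0.371) and Hand1, both named after their values were seen. Hand1 was barely detected, at 0.022, 0.229 and 0.027 CPM in WT and 0.421, 0.567 and 0.621 CPM in KO libraries.

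Ratios of isoforms within a library do not depend on library scaling, and none of 5 pairs separated the groups. The log2 ratio of Myl7 to Myl2 counts was -5.15, -2.59 and -3.37 in WT and -3.22, -3.32 and -1.17 in KO libraries. That of Myl4 to Myl3 was -4.76, -2.08 and -2.93 in WT and -2.66, -2.53 and -0.65 in KO libraries. The groups overlapped in both, and the extremes were again WT 1 and KO 3. The mean differences, KO minus WT, were 1.13 and 1.31 on the log2 scale, each with an exact two-sided permutation p = 0.4, and p = 0.5 after adjustment over the 5 pairs. With 3 against 3 libraries, 0.1 is the smallest p this test can give. Without KO 3 the differences were 0.44 for Myl7 to Myl2 and 0.67 for Myl4 to Myl3.

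The heavy chain ratio, a marker of the slow-to-fast balance of heart muscle, was steady in WT and spread in KO libraries. The log2 ratio of Myh7 to Myh6 was -2.85, -2.98 and -2.82 in WT and -3.44, -2.75 and -3.29 in KO libraries. KO 1 and KO 3 were below all WT libraries and KO 2 above them, with a mean difference of -0.28 (exact two-sided permutation p = 0.4, adjusted p = 0.5). For Tnni1 to Tnni3 and Acta1 to Actc1 the mean differences were 0.93 and 0.32 (exact two-sided permutation p = 0.5 for each, adjusted p = 0.5). KO 2 was the highest library in both, and without it the differences were 0.087 for Tnni1 to Tnni3 and -0.08 for Acta1 to Actc1.

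**Figure D3:**
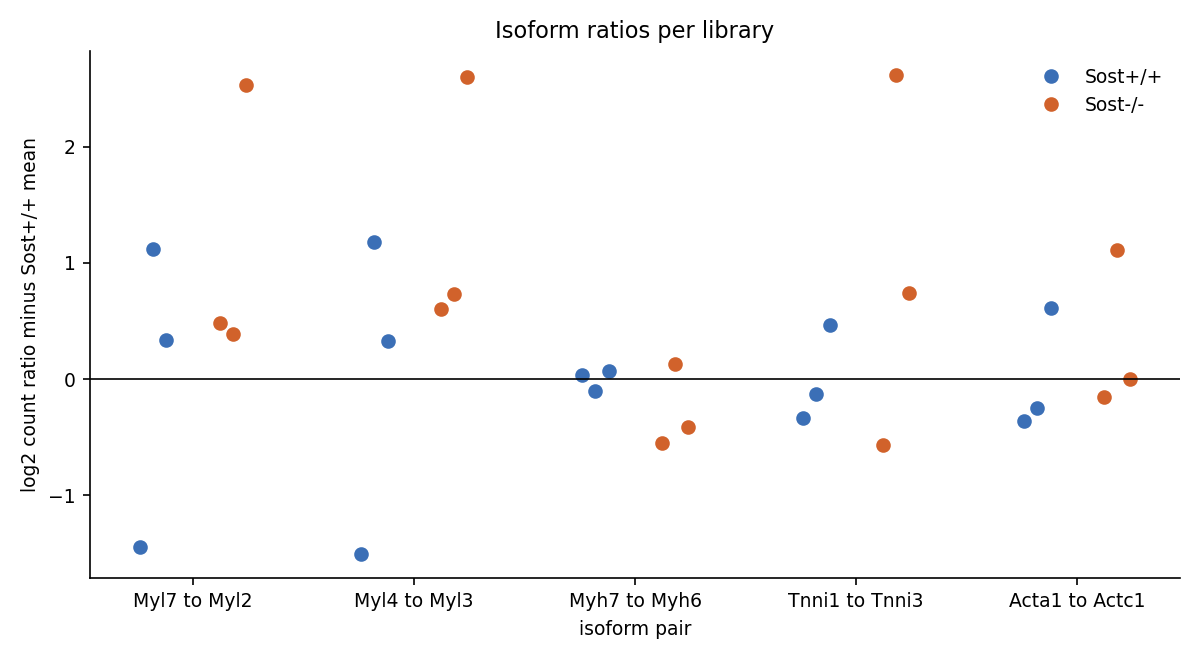
Log2 ratio of counts for 5 isoform pairs (x axis), shown as the difference from the mean of the Sost+/+ libraries (y axis), 1 point per library. In every pair the groups overlap; the light chain pairs span the widest range among Sost+/+ libraries.

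Of 8 thin filament genes 7 had a lower mean in KO libraries, and 0 passed in edgeR, with 6 lower at an unadjusted p under 0.05 and 5 by DESeq2. Tnnc1, the calcium-binding cardiac troponin C, had the smallest p of this role, with 3906, 3004 and 2599 CPM in WT and 2091, 2337 and 1832 CPM in KO libraries (log2 fold change -0.60, SE 0.17, adjusted p = 0.102). Tnni3, the inhibitory cardiac troponin I, had 4199, 3526 and 3082 CPM in WT and 2787, 2626 and 2420 CPM in KO libraries (log2 fold change -0.46, SE 0.14, adjusted p = 0.124). Actc1, cardiac alpha-actin, had 10454, 11501 and 13490 CPM in WT and 10029, 8443 and 8534 CPM in KO libraries (log2 fold change -0.39, SE 0.15, adjusted p = 0.191). In all 3 the KO libraries lay below the WT libraries. Tnnt2, which ties troponin to tropomyosin, was at -0.62 (SE 0.21), Tpm1, alpha-tropomyosin, at -0.55 (SE 0.17), and Lmod2, a leiomodin that lengthens thin filaments, at -0.36 (SE 0.14), also without overlap. Those called by DESeq2 were Tnnc1, Tnni3, Actc1, Tnnt2 and Tpm1.

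The thin filament isoforms of fetal heart and skeletal muscle behaved otherwise. Acta1, skeletal alpha-actin, had 765, 906 and 1935 CPM in WT and 844, 1707 and 801 CPM in KO libraries. WT 3 and KO 2 were high and the other 4 libraries lay close together, so the groups overlapped (log2 fold change -0.11, SE 0.38, adjusted p = 0.904). Coding stretches of Acta1 and Actc1 are nearly identical and may share reads. Tnni1, slow skeletal and fetal troponin I, had 1.57, 1.53 and 2.0 CPM in WT and 0.888, 7.62 and 1.91 CPM in KO libraries. KO 2 stood alone, the log2 fold change of 1.03 (SE 0.64, adjusted p = 0.398) did not pass, and without KO 2 it was -0.28. The summed share of skeletal muscle markers was also highest in KO 2, at 0.0182% of counts, but most of it is the 1 gene Mybpc2, fast skeletal myosin-binding protein C, named after its values were seen. Mybpc2 had 150.5, 110.2 and 130.2 CPM in WT and 78.7, 152 and 79.6 CPM in KO libraries, so WT 1 was nearly as high as KO 2. Not every marker was high in KO 2: Atp2a1, the fast skeletal calcium pump, was lowest there, at 0.740 CPM.

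Titin and M-band genes were split. Myom2, myomesin 2, a cross-linker of thick filaments in the M-band (chromosome 8, 15057653 to 15133541, plus strand), had 1199, 1074 and 900 CPM in WT and 702, 636 and 742 CPM in KO libraries. It fell, with no overlap, by 0.61 on the log2 scale (SE 0.13, adjusted p = 0.0472). Myom1, myomesin 1, was also lower in every KO library (log2 fold change -0.32, SE 0.11, adjusted p = 0.165). Ttn, the giant spring that spans from Z-disc to M-band (-0.14, SE 0.15), and Myom3 (-0.13, SE 0.16) overlapped between groups and had adjusted p of 0.618 and 0.674.

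The Z-disc held the other members that fell. Csrp3, the muscle LIM protein (chromosome 7, 48830398 to 48848033, minus strand), had 1778, 1621 and 1687 CPM in WT and 1161, 1276 and 1130 CPM in KO libraries, a fall of 0.51 on the log2 scale (SE 0.11, adjusted p = 0.0457). Myoz2, calsarcin 1, which tethers calcineurin to alpha-actinin (chromosome 3, 123006206 to 123035015, minus strand), had 897, 807 and 805 CPM in WT and 593, 617 and 586 CPM in KO libraries, a fall of 0.48 (SE 0.10, adjusted p = 0.0436). Neither gene had the largest fold change of the members. They had the smallest spread within groups, with pooled SDs of log2 CPM of 0.069 for Myoz2 and 0.080 for Csrp3, against 0.25 for Myh7.

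**Figure D4:**
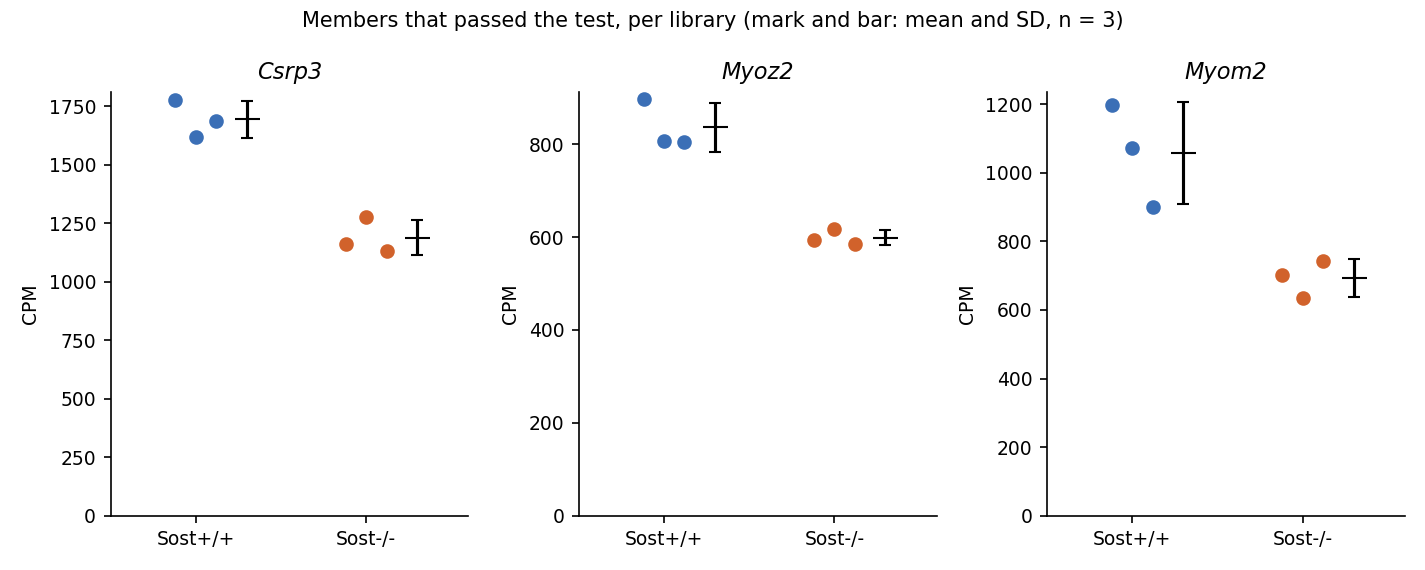
CPM per library (y axis) of the members that passed the edgeR test, Csrp3, Myoz2 and Myom2, by genotype label (x axis), with the mean and SD (n = 3) beside the points. In each panel the 3 libraries labelled Sost-/- lie below all 3 labelled Sost+/+.

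Of the other Z-disc genes, Actn2 (alpha-actinin 2, the main cross-linker, -0.46, SE 0.12, adjusted p = 0.0759), Tcap (telethonin, which caps titin, -0.38, SE 0.13), Ldb3 (cypher, -0.30, SE 0.13), Nexn (nexilin, -0.52, SE 0.18) and Pdlim5 (-0.39, SE 0.12) did not pass and did not overlap between groups. Nebl, which encodes nebulette, was the Z-disc gene with a positive fold change. Its CPM were 54.4, 48.04 and 64.7 in WT and 69.4, 58.2 and 62.2 in KO libraries, which overlap (log2 fold change 0.18, SE 0.12, adjusted p = 0.421).

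Strain-linked, intercalated disc and intermediate filament genes were lower on average in all 7 cases, and 0 passed in edgeR (5 at an unadjusted p under 0.05, and 3 by DESeq2). Fhl2, a LIM protein that binds titin, had the smallest p of this role, with 1953, 1614 and 1758 CPM in WT and 1420, 1191 and 1151 CPM in KO libraries (log2 fold change -0.50, SE 0.13, adjusted p = 0.0838). Xirp1, an intercalated disc protein gene, was at -0.58 (SE 0.18), Des, which encodes desmin, at -0.34 (SE 0.14), and Smpx at -0.31 (SE 0.11), all without overlap. Ankrd1, the stretch-responsive ankyrin repeat protein, overlapped between groups, since KO 2 at 5147 CPM lay above WT 2 at 4931 CPM while KO 1 and KO 3 were at 3343 and 3439 CPM (log2 fold change -0.51, SE 0.19, adjusted p = 0.179). Xirp2 (-0.35, SE 0.22) and Cmya5 (-0.24, SE 0.12) overlapped too. For Cmya5, 20.7% of exon bases overlap A630019I02Rik on the opposite strand.

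Members that smooth muscle also makes did not rise with the smooth muscle markers. Tpm1, Des, Pdlim5, Nexn and Fhl2 all had lower KO values in every library, with a median log2 fold change of -0.50, while the smooth muscle list had a median of 1.37 in the same libraries. These 5 took 1.58% to 1.93% of WT counts, against 0.197% to 0.350% for the whole smooth muscle list. Heart muscle makes them too, so their totals cannot show what their smooth muscle part did, and that part was not tested. The smooth muscle genes of smallest p were Itga8 (2.20, SE 0.33), Myl9 (1.62, SE 0.26) and Cnn1 (1.70, SE 0.28).

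Per length of merged exons, the most abundant members in WT libraries were Tnnt2, at 9040 ± 2242 CPM per kb (SD, n = 3), Actc1, at 8021 ± 1047, and Myh6, at 5908 ± 164. The levels of Tnnt2 and Actc1 did not differ beyond their spread. Myl2 and Myl3 stood at 4667 ± 932 and 4662 ± 657 CPM per kb in WT libraries, and the atrial Myl7 and Myl4 at 878 ± 558 and 525 ± 360. In KO libraries the ventricular pair was at 2952 ± 525 and 3236 ± 650 CPM per kb, and the atrial pair at 1210 ± 863 and 826 ± 514. Tnni1 (1.34 ± 0.208) and Myom3 (1.13 ± 0.0918) were the least abundant in WT libraries.

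Most other heart muscle genes had a negative fold change, and few passed the test. Of 33 further sarcomere and Z-disc genes, all tested, 0 rose and 1 fell in edgeR, with a median log2 fold change of -0.34. At an unadjusted p under 0.05, 1 was higher and 20 were lower, DESeq2 called 0 higher and 14 lower, and 21 had non-overlapping lower KO values against 1 higher. The gene that fell was Klhl31, a kelch protein gene of striated muscle (-0.56, SE 0.12, adjusted p = 0.0441). The next by p were Ankrd23, a relative of Ankrd1 (-0.70, SE 0.16), and Tnnt1, slow skeletal troponin T (-0.69, SE 0.16), both with an adjusted p of 0.0555. Of 25 cardiomyocyte genes outside the sarcomere, such as calcium handling, energy and transcription factor genes, 0 rose and 0 fell in edgeR (11 were lower at an unadjusted p under 0.05, and 5 by DESeq2), 24 had a negative fold change, 9 had non-overlapping lower KO values, and the median was -0.29. They took 4.04% ± 0.169 (SD, n = 3) of WT counts, and the share was 3.48% ± 0.331 (SD, n = 3) of KO counts. The members' counts were 3.07, 3.09 and 3.23 times theirs in WT 1 to 3, against 2.73, 3.19 and 2.72 times in KO 1 to 3, so KO 2 stood among the WT libraries.

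When libraries were scaled to those 25 cardiomyocyte genes in place of all genes, the fold changes of all 35 members were more positive. Their median log2 fold change was -0.13, and 0 members were called lower (0.0861% of all tested genes were). Counting both directions, 5 members had an unadjusted p under 0.05, as did 5835 of all 15096 tested genes. This scaling moves all genes together and raised the median of all tested genes from 0.0066 to 0.31. Its values are therefore relative to heart muscle genes, and the rise of all 35 members is not a result about them. Nebl, at 0.47 (SE 0.14, adjusted p = 0.0383), was among the 2405 of 15096 tested genes that were called higher with this scaling. Myh7 (-0.42, SE 0.17, adjusted p = 0.0933), Myl2 (-0.36, SE 0.14, adjusted p = 0.0869) and Myom2 (-0.30, SE 0.13, adjusted p = 0.105) stayed negative without passing. Csrp3 (-0.21, SE 0.13) and Myoz2 (-0.18, SE 0.13) had adjusted p of 0.241 and 0.296. Ttn (0.15), Acta1 (0.20), Myom3 (0.16) and Cmya5 (0.06) had positive values on this scale. Myl4 was at 0.94 (SE 0.47, adjusted p = 0.146) and Myl7 at 0.75 (SE 0.46, adjusted p = 0.229).

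**Figure D5:**
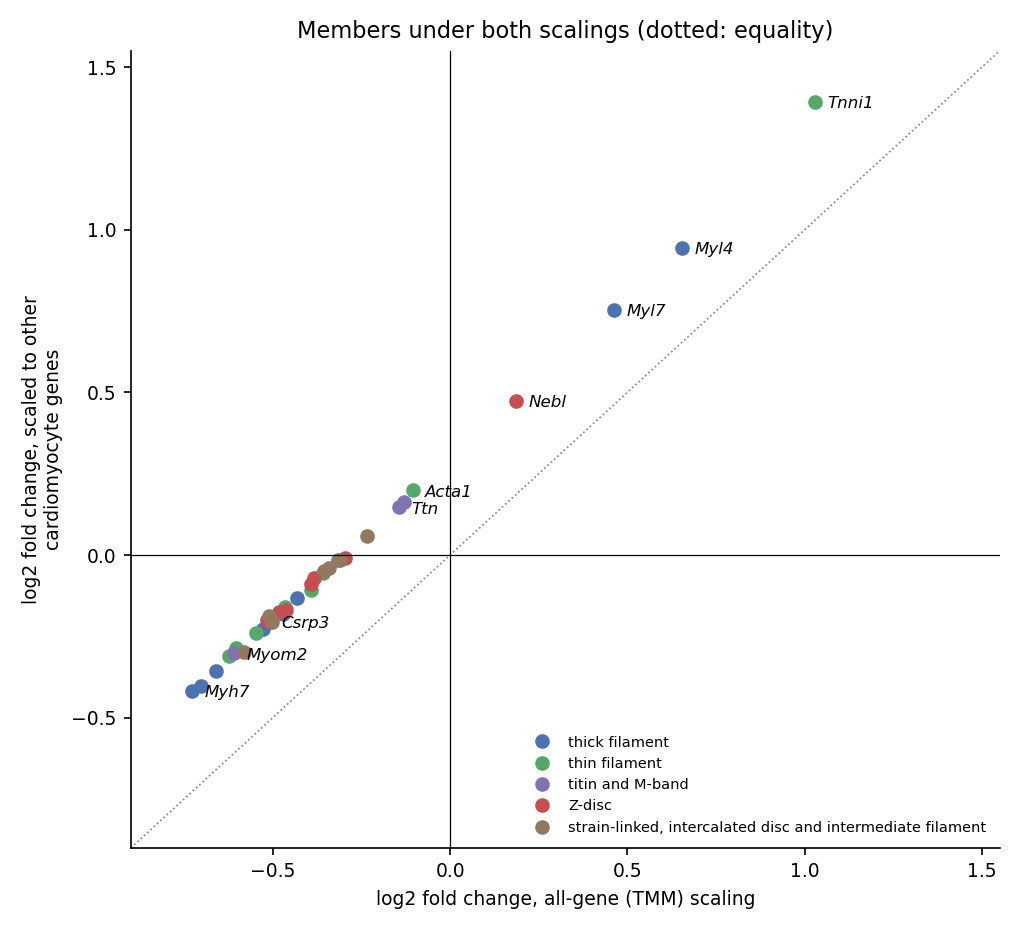
Log2 fold change of each member with all-gene scaling (x axis) and with scaling to 25 cardiomyocyte genes outside the sarcomere (y axis), coloured by role, with a dotted line of equality. All points lie above the line, since the change of scaling moves all genes upward together. On the y axis 27 of 35 remain below 0, and Tnni1, Myl4, Myl7 and Nebl lie highest.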

How the data were processed

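Counts per gene symbol were used as deposited by the authors, with DRAGEN, HTSeq and DESeq2 as tools and mm10 as build per the submitters' processing notes. For the versions, the annotation and the strand setting, the sources used here give nothing. In the deposited table of normalized signal, each library's counts were divided by a single number, which matched the size factor that DESeq2 gives. Groups come from the genotype label, and replicate numbers are accession order.

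Genes passing filterByExpr (minimum count 10, minimum total 15) entered edgeR 4.0.16 in R 4.3.3 (TMM factors, glmQLFit, glmQLFTest), with Benjamini-Hochberg adjustment over 15096 genes. The SE is the absolute log2 fold change divided by the square root of F. Isoform ratios were compared by exact permutation in SciPy 1.17.1. Gene positions and exon lengths come from GENCODE M21 (basic set). Alternatives used DESeq2 1.42.0 and limma 3.58.1, other scalings and filters, and each library left out. DESeq2 with a library left out was added after seeing the data. Simulated data with known changes, drawn with a common dispersion, served to test the edgeR step. It called 22.6% of the genes changed by 0.5 on the log2 scale, 95.5% of those changed by 1 and 100% of those changed by 2. Changes of the size seen in most members can therefore go uncalled.

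The members, roles and lists were chosen with earlier results of these data known. Values in every library are given for members that passed, members of the 5 isoform pairs and the member of smallest p in each role. Outside the members, up to 3 genes per list are named, and genes chosen otherwise are marked.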

Additional observations from a re-analysis of the deposited data

How the results depend on the processing

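The count of members called lower, 3 in the test reported, was 22 by DESeq2, 5 with voom and library weights, and 0 both with scaling to cardiomyocyte genes and with the deposited normalized values (log2(value + 1), limma). It was 0 to 1 in edgeR and 7 to 21 in DESeq2 with a library left out. Calls for all genes, 385 in the test reported, numbered 1158, 582, 2418 and 1 in those 4 alternatives, and 0 to 349 in edgeR and 364 to 1334 in DESeq2 with a library left out. With 0 genes called, without WT replicate 1, 2262 had an unadjusted p under 0.05. Members called higher numbered 0 in the test reported, 1 (Nebl) with scaling to cardiomyocyte genes, and 0 to 1 with a library left out, the 1 being Tnni1 in DESeq2. Limma-voom, DESeq2's size factors, upper-quartile factors, scaling without muscle genes, a stricter filter and robust dispersion each gave 3 members lower, and no filter gave 4.

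Among single members, 352 of 385 values under alternatives with all libraries kept their direction and their side of the threshold, 23 passed only in the alternative, 6 no longer passed and 4 changed direction. These 4, with scaling to cardiomyocyte genes, were Acta1 0.198, Ttn 0.146, Myom3 0.164 and Cmya5 0.0584. In the test reported, these 4 had the smallest negative fold changes in size (Acta1 -0.11, Ttn -0.14, Myom3 -0.13 and Cmya5 -0.24). This scaling raised the median of all tested genes from 0.0066 to 0.31. With a library left out, Acta1 ran from -0.558 to 0.410, Myl7 from -0.306 to 1.03 and Tnni1 from -0.295 to 1.49. The isoform ratios moved by less than 1 SD between replicates in every alternative tried, though that of Acta1 to Actc1 changed sign without KO replicate 2 (-0.078). This SD was larger than the difference itself for Myl7 to Myl2 (1.26 against 1.13), Tnni1 to Tnni3 (1.17 against 0.93) and Acta1 to Actc1 (0.62 against 0.32). It was nearly as large for Myl4 to Myl3 (1.25 against 1.31) and Myh7 to Myh6 (0.26 against -0.28). For none of the pairs, therefore, does a move within 1 SD show stability. Without WT replicate 1, the difference of Myl7 to Myl2 was 0.41. No paired analysis was possible because the labels give no replicate numbers that the groups share. With 3 libraries a group, members that vary several-fold within a group, such as Myl4 and Myl7, have SEs of 0.54 on the log2 scale.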
